A study of Mus musculus with 4 samples.

Results

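The panel-high endothelium described here was the set of 70 endothelial cells (EC) of the mouse aorta with the highest score over 6 genes, Galnt18, Aqp1, Ret, Igfbp5, Sema3d and Lyve1. EC were the 820 of 991 deposited cells that had more than 1200 genes above 0 and at least 3 summed counts of Pecam1, Cdh5 and Vwf, the genes of CD31, VE-cadherin and von Willebrand factor. The score of a cell was the mean over the panel of the natural log of 1 plus the count per 10,000 counts of that cell. Measured values of the 6 genes therefore chose these cells, and levels of the panel and of the 3 gate genes are given as a description, without a test.

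Cells came from 4 libraries made by SORT-seq, a plate-based single-cell method that counts the 3′ ends of transcripts with molecular identifiers. The 2 libraries labelled Jag1 ECKO came from mice with floxed Jag1 (fl/fl) and a tamoxifen-inducible Cre driven by the endothelial Cdh5 promoter, and the 2 labelled Jag1 ECWT from control Jag1 fl/fl mice that were Cdh5+/+ and so had no Cre. According to the methods all mice were C57BL/6J males aged 1.5 to 3 months, and tamoxifen was given at 2 mg per day for 5 days. The time from tamoxifen to harvest, and whether a library was 1 animal, were not given in the sources used here. P-values below therefore rest on the spread between these libraries, which may be technical. In the edgeR test used below that spread was estimated partly from all genes together. A very small p is thus not a measure of how closely the libraries matched for 1 gene. Aortas from the root to the iliac artery were digested after the adventitia had been taken off, and cells that were CD31+, CD45- and negative for the dead-cell dye TO-PRO-3 were sorted.

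Each panel gene has a known place in vessel biology. AQP1 is a water channel of many microvascular and some large-vessel endothelia, LYVE1 is a hyaluronan receptor best known from lymphatic endothelium and some macrophages, and IGFBP5 is a secreted protein that binds insulin-like growth factors. SEMA3D is a secreted guidance cue that acts through neuropilins and plexins, RET is the receptor tyrosine kinase of the GDNF family, and GALNT18 belongs to a family of enzymes that start O-linked glycans. The endothelium of large arteries, capillaries, veins and lymphatics differs in transcription factors, junction proteins, matrix and lipid uptake, and those groups of genes are the ones followed here.

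The score was carried mainly by Aqp1 and Igfbp5. Aqp1 gave 53.0% of the summed score of the 70 cells, Igfbp5 22.6%, Sema3d 7.66%, Lyve1 7.04%, Galnt18 6.44% and Ret 3.26%. Aqp1 was the largest term in 58 cells, Igfbp5 in 11 and Ret in 1. An Aqp1 count was present in 64 of the 70, an Igfbp5 count in 37, Sema3d in 22, Galnt18 in 20, Lyve1 in 17 and Ret in 8. All of Lyve1, Aqp1, Igfbp5 and Sema3d were detected together in 4 cells, and 11 cells entered through Aqp1 alone. The working label of a cell type with Lyve1 as a mark thus fitted only part of the set, and the cells are called panel-high EC by the rule that chose them. Panel-high EC had 1 panel gene detected in 11 cells, 2 in 31, 3 in 19, 4 in 7 and 5 in 2, and none had all 6.

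**Figure D1:**
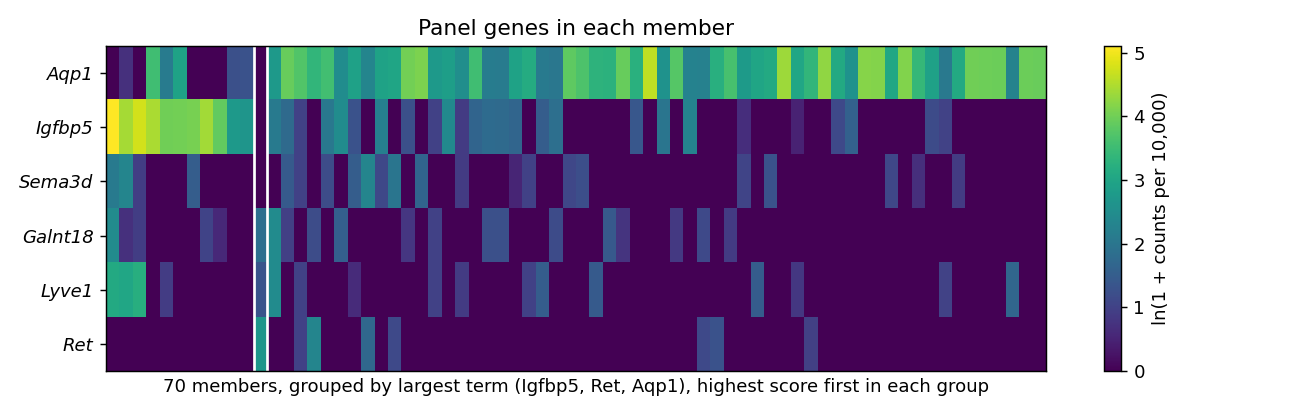
Each column is 1 of the 70 panel-high EC and each row a panel gene, coloured by the natural log of 1 plus counts per 10,000. White lines separate the 11 cells led by Igfbp5, the 1 led by Ret and the 58 led by Aqp1. Aqp1 is present across the right-hand block, and Lyve1 is most intense in the first 3 columns.

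The promoters of the 2 genes that led the score are shown to place them in the genome. The sequences are those of RefSeq on GRCm38.p6 and run from 250 bases before to 50 bases after the annotated start, with the bases from that RefSeq start on in capitals. Aqp1 lies on the plus strand of chromosome 6 (window chr6:55336049-55336348) and Igfbp5 on the minus strand of chromosome 1 (window chr1:72874816-72875115).
Aqp1: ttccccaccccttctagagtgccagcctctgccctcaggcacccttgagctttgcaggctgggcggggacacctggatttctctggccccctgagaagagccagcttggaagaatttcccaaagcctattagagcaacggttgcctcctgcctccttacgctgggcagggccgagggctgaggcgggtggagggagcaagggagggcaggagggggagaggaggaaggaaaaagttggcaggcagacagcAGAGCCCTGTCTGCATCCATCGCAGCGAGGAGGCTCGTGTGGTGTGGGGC
Igfbp5: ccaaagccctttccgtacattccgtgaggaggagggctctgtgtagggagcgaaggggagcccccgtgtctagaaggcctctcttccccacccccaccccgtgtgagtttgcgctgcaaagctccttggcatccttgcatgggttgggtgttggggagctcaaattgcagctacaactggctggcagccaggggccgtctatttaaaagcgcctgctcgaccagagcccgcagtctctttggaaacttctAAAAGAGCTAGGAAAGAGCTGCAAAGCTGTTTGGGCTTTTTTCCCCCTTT
Promoter sequences were found for 3 of the 6 panel genes. The letters AGATAA, a motif of GATA factors, were in none of the 3 on either strand and in 11.2% of all promoters of this length. The letters TTCCCAC, a motif of the Notch effector RBPJ, were also in none of the 3 and in 6.38% of all. In the GENCODE vM21 annotation of GRCm38 the start of Aqp1 lies beyond the end of the window shown, so the capitals of Aqp1 follow RefSeq's start only. In GENCODE the protein-coding genes were placed at chr6:55336432-55348555 for Aqp1, chr1:72857932-72874884 for Igfbp5, chr7:110850607-110863239 for Lyve1, chr5:12383385-12588948 for Sema3d, chr7:111471661-111779977 for Galnt18 and chr6:118151745-118197718 for Ret.

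The score formed a continuous range and not a separate peak. It reached 2.12 in the highest cell and had a median of 0.782 in panel-high EC and of 0 in the other 750 EC, of which 385 had no panel count. The last cell inside had a score of 0.656 and the first outside 0.652. Of the panel-high EC, 30 lay within 0.1 above the threshold, and 46 of the other EC lay within 0.1 below it.

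**Figure D2:**
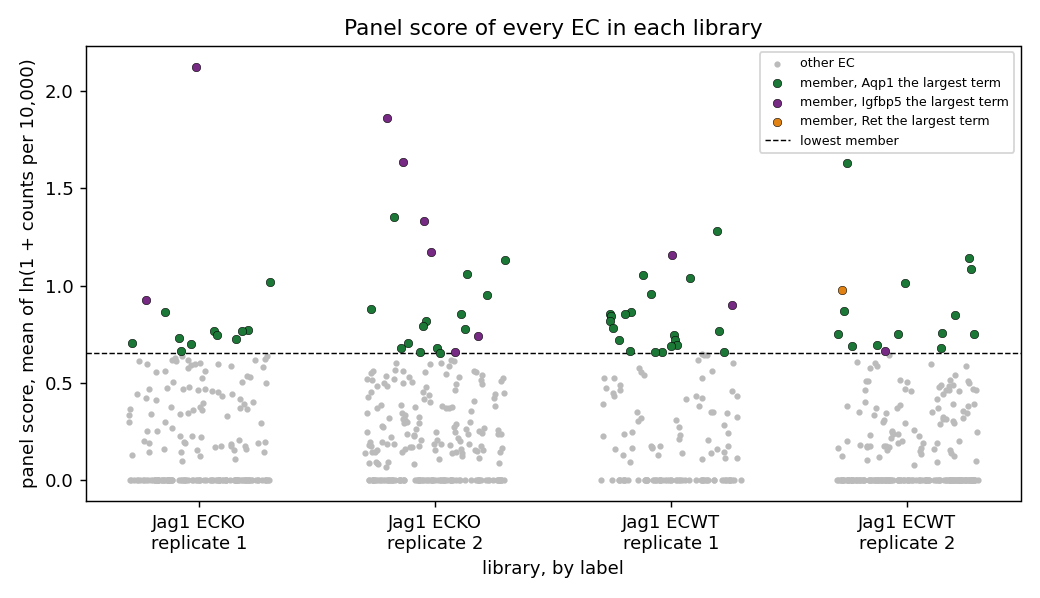
Panel score of every EC, by library. Grey points are other EC, coloured points panel-high EC by the gene that gave the largest term, and the dashed line is the lowest panel-high score, 0.656. The 3 highest cells are led by Igfbp5 and sit in the libraries labelled Jag1 ECKO.

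Panel-high EC were 13 of 199 EC in Jag1 ECKO replicate 1 (6.53%, exact 95% interval 3.52% to 10.9%) and 20 of 236 in Jag1 ECKO replicate 2 (8.47%, 5.25% to 12.8%). They were 22 of 140 in Jag1 ECWT replicate 1 (15.7%, 10.1% to 22.8%) and 15 of 245 in Jag1 ECWT replicate 2 (6.12%, 3.47% to 9.90%). The intervals cover counting error only. The share was 7.50% ± 1.37 (SD, n = 2) under the label Jag1 ECKO and 10.9% ± 6.78 under Jag1 ECWT, and the label ranges overlapped. The difference of -3.41 percentage points had p = 1 in a two-sided exact permutation test, for which 0.333 is the smallest p that 2 libraries against 2 can give. Without Jag1 ECWT replicate 1 the difference was 1.38 points, in the opposite direction.

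Totals over all deposited cells ran from 903943 to 1850434 counts a library, and the summed counts of panel-high EC were 52050, 148164, 142049 and 76123 for Jag1 ECKO replicates 1 and 2 and Jag1 ECWT replicates 1 and 2, the order kept below. The median count of a panel-high EC was 3293, 6077, 5778 and 4186, beside 4252, 6540, 5518 and 5278 in the other EC, so they were shallower in 3 libraries and deeper in Jag1 ECWT replicate 1. Jag1 counts over all EC were 161, 126, 28 and 38, or 164, 70.8, 32.6 and 25.6 CPM (counts scaled to a sum of 1000000), higher in the libraries labelled as deleted. The study checked its deletion by other assays, which are not analysed here. Whether the counted 3′ end lies in the deleted part of Jag1 was not given in the sources used here, so this gene does not check the labels, and directions between labels below refer to libraries as labelled. Well barcodes were reused between plates by design, and 324 of 373 occurred in 2 or more libraries.

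Levels of the panel in panel-high EC, summed per library and given as CPM of that class, differed between libraries most for Igfbp5, Lyve1 and Ret. Aqp1 had 3055, 1924, 2612 and 2601 CPM, beside 555, 335, 390 and 277 in the other EC. Igfbp5 had 1345, 2949, 662 and 276 CPM beside 12.9, 72.97, 18.1 and 8.52, and its level was highest in Jag1 ECKO replicate 2. Lyve1 had 154, 371, 42.2 and 78.8 CPM beside 6.46, 7.97, 2.79 and 9.23. Of the 75 Lyve1 counts these levels rest on, 56 came from the 3 cells with the highest score. Sema3d had 134, 135, 91.5 and 26.3 CPM beside 9.69, 11.7, 6.97 and 10.6. Galnt18 had 57.6, 47.2, 49.3 and 131 CPM beside 7.54, 6.13, 4.18 and 1.42, and was highest in Jag1 ECWT replicate 2. Ret had 19.2, 0, 21.1 and 145 CPM beside 2.15, 3.07, 0 and 4.97, and 11 of its 15 counts were in Jag1 ECWT replicate 2.

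Panel genes were also looked at in cells that they did not help to choose. The 70 EC were chosen again by the other 5 genes, and the gene left out was summed in those cells and in the remaining EC of the same library. The 6 panel genes were named together from these same libraries, so the values are a description, without a test. Galnt18 had 54.8, 47.2, 36.0 and 117 CPM in cells chosen without it and 7.56, 6.13, 6.94 and 2.82 in the rest, higher in all 4 libraries. Igfbp5 had 626, 2792, 52.9 and 117 CPM against 39.7, 184, 138 and 17.0, so it was lower in Jag1 ECWT replicate 1 and higher in the other 3 libraries. Aqp1, the gene that carried most of the score, had 662, 682, 1432 and 1011 CPM in cells chosen without it and 689, 432, 695 and 359 in the rest, with overlap. Lyve1 had 116, 380.5, 14.6 and 64.7 CPM against 8.61, 9.15, 8.31 and 9.95, and 53 of its 66 counts were in Jag1 ECKO replicate 2. Sema3d had 111, 135, 49.2 and 14.3 CPM against 10.8, 11.7, 16.3 and 11.3, nearly level in Jag1 ECWT replicate 2 on 1 count. Ret had 19.2, 0, 13.3 and 58.9 CPM against 2.15, 3.07, 1.41 and 9.88, on 7 counts.

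Outside the panel and the gate, panel-high EC differed from the other EC of the same libraries in genes of vessel type, matrix and mural cells. Venous and lipid-handling genes such as Nr2f2, Lrg1, Fabp4 and Cd36 were higher. Arterial genes such as Gja4, Hey2, Fbln5 and Eln were lower, as were 7 of 20 matrix genes tested, Fbln5 and Eln again among them. Of the genes that answer to blood flow, Edn1 and Cyr61 were lower and Klf4 and Timp3 higher. The test compared sums per library and class with library as a block, by edgeR's quasi-likelihood test with Benjamini-Hochberg adjustment over 6196 genes. Of these, 131 were called at an adjusted p below 0.05 (2.11%), 64 higher (1.03%) and 67 lower (1.08%), and 117 of the 131 had the same sign in all 4 libraries. Which genes were called rested on Aqp1: cells chosen without it gave 59 calls, of which 28 were among the 131. Without Jag1 ECKO replicate 2 there were 83 calls, 29 of them higher. Calls of single genes were fragile: of 56 named called genes, 50 lost their call under at least 1 of up to 26 alternatives, and 5 kept it under all.

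**Figure D3:**
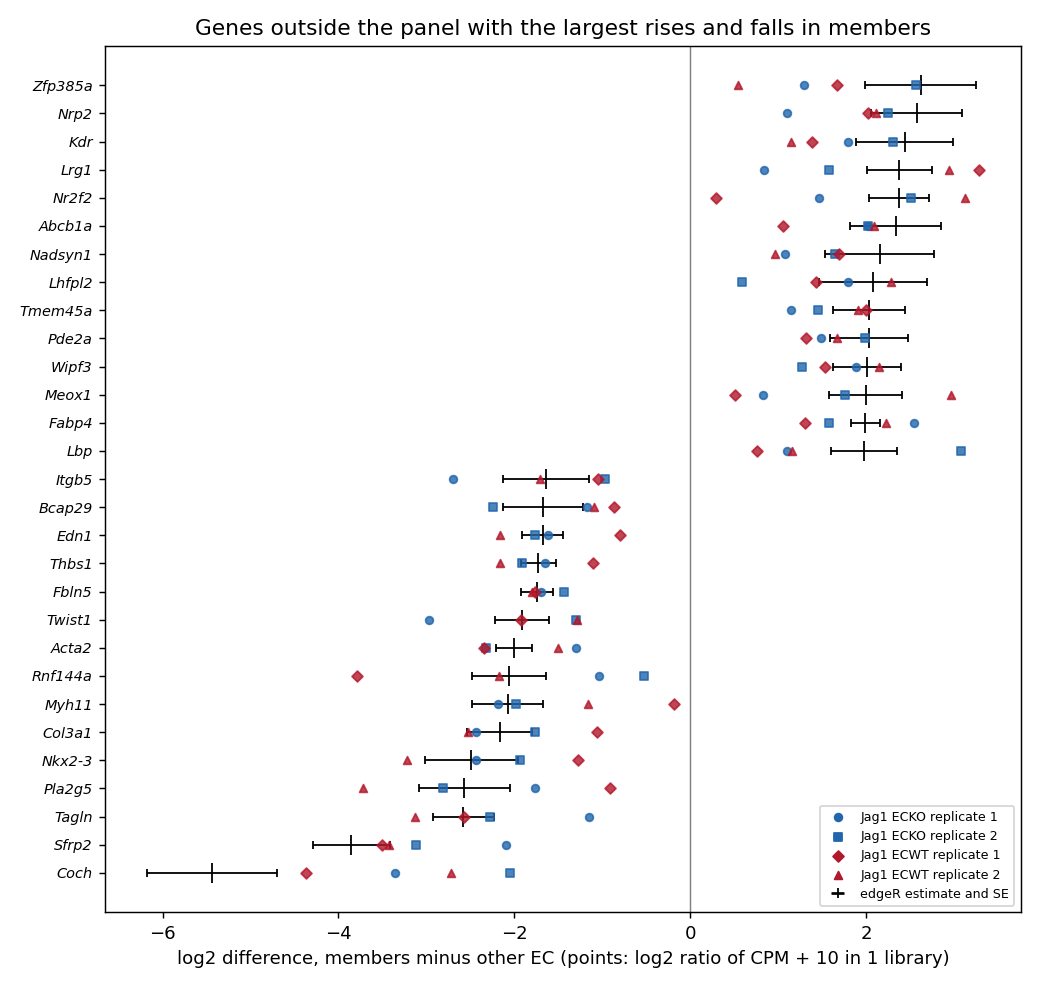
The largest rises and the 15 largest falls among called genes with 1 sign in all 4 libraries. Black marks are edgeR's log2 differences, panel-high minus other EC, with their SE. Coloured points are the log2 ratio of CPM + 10 in each library, which is closer to 0 for genes with few counts. Points of all 4 libraries lie on 1 side of 0 for each gene.

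Among venous genes, 3 of 7 tested rose (Nr2f2, Lrg1 and Plvap) and none fell. The list had a median log2 difference of 0.59, beside -0.02 over all genes tested. Its summed level ran from 4007 to 4784 CPM in panel-high EC and from 3550 to 4125 in the other EC, with overlap. Nr2f2, which encodes COUP-TFII, the transcription factor that specifies venous identity, had 211, 317, 21.1 and 158 CPM in panel-high EC and 70.004, 47.2, 15.3 and 9.23 in the other EC (log2 difference 2.38, SE 0.34, edgeR adjusted p = 1.56e-07). It was higher in each library, by little in Jag1 ECWT replicate 1, and 14 of 70 panel-high EC had a count beside 53 of 750 others. With each EC thinned to 2500 counts, which left 65 panel-high and 723 other EC, the Nr2f2 shares were 16.9% and 4.84%. In Jag1 ECWT replicate 1 an Nr2f2 count was in 1 of 22 panel-high EC and 6 of 118 others, so the share was not higher there. In Jag1 ECWT replicate 2 the 12 Nr2f2 counts were in 2 panel-high EC. Of all 73 Nr2f2 counts in panel-high EC, the 3 cells with the highest score held 4, 9 and 15. Lrg1, a secreted glycoprotein that modulates TGF-beta signalling in endothelium, had 231, 87.7, 169 and 105 CPM beside 124, 22.7, 8.37 and 4.97 (log2 difference 2.38, SE 0.37, edgeR adjusted p = 1.27e-06). Of the Lrg1 counts behind these levels 1 cell held 17 of 57, and all 8 of Jag1 ECWT replicate 2 were in 1 cell. Plvap, which forms the diaphragms of fenestrae and caveolae, had 1710, 925, 535 and 854 CPM beside 749, 480, 463 and 354 (log2 difference 0.85, SE 0.15, edgeR adjusted p = 1.64e-05), but a Plvap count was in 58.6% of panel-high EC and 63.7% of the others, so the share of cells did not rise with the level. In cells scored without Aqp1 the calls of Lrg1 and Plvap were lost, Lrg1 with a log2 difference of -0.028, and Nr2f2 kept its call. Both also lost their calls among the 50 highest EC, and all 3 with no replicate block.

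Some lipid-handling genes rose in the same contrast. Of 5 capillary and lipid-handling genes tested, Fabp4 and Cd36 rose and none fell, with a list median of 0.81. The summed list ran from 711 to 4784 CPM in panel-high EC and from 382 to 1019.9 in the other EC, with overlap. Fabp4, a carrier of fatty acids inside the cell, had 3055, 445, 246 and 631 CPM in panel-high EC and 513, 143, 93.4 and 126 in the other EC (log2 difference 1.99, SE 0.17, edgeR adjusted p = 2.15e-17). Cd36, a receptor for fatty acid uptake, had 788, 74.2, 232 and 65.7 CPM beside 164, 43.5, 26.5 and 22.01 (log2 difference 1.97, SE 0.28, edgeR adjusted p = 1.32e-07). Both genes were higher in all 4 libraries, and Jag1 ECKO replicate 1 held the highest level in either class. A Fabp4 count was found in 34.3% of panel-high EC and 14.5% of the others, and a Cd36 count in 18.6% and 5.60%. By library, Fabp4 was in 10 of 13, 8 of 20, 2 of 22 and 4 of 15 panel-high EC, beside 37 of 186, 30 of 216, 13 of 118 and 29 of 230 others, a lower share than in the others in Jag1 ECWT replicate 1. After thinning the shares were 24.6% and 11.2% for Fabp4 and 13.8% and 4.15% for Cd36. One cell held 32 of the 90 Cd36 counts. Both calls were lost in cells scored without Aqp1 and with no replicate block, and that of Cd36 also among the 50 highest EC, after thinning and with the score without Ret.

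Receptors for vascular endothelial growth factors and markers shared with lymphatic endothelium were also among the rises. Nrp2, a co-receptor for VEGF-C and class 3 semaphorins, had 115, 60.7, 70.4 and 39.4 CPM beside 48.5, 4.91, 9.76 and 1.42 (log2 difference 2.58, SE 0.52, edgeR adjusted p = 2.70e-04). Kdr, the main VEGF-A receptor, had 76.8, 60.7, 63.4 and 26.3 CPM beside 15.1, 4.29, 18.1 and 6.39 (log2 difference 2.44, SE 0.55, edgeR adjusted p = 0.00203). Each was higher in all 4 libraries, on 28 and 24 counts. The Nrp2 counts lay in 9 of 70 panel-high EC, 3, 2, 3 and 1 by library. The call of Nrp2 was lost with the same share of EC from each library and with no replicate block. Flt1, a VEGF receptor that also acts as a decoy, rose by 1.29 on the log2 scale (SE 0.32), and Flt4, the VEGF-C receptor of lymphatic endothelium, by 1.38 (SE 0.40), with edgeR adjusted p of 0.00771 and 0.0456. The call of Flt4 was lost under 16 of 26 alternatives and that of Flt1 under 9, and Kdr and Flt1 lost theirs without Jag1 ECKO replicate 2. Of the lymphatic list 4 of 9 genes could be tested, and 3 rose: Flt4, Nrp2 and Fgl2, a membrane-bound prothrombinase that rose by 1.33 (SE 0.20, edgeR adjusted p = 6.79e-07). The summed lymphatic list ran from 831 to 1652 CPM in panel-high EC and from 613 to 1003 in the other EC, with overlap. Prox1, the transcription factor that defines lymphatic endothelium, had 1 count in all 70 panel-high EC and 4 in the other 750. Of the semaphorin, plexin and neuropilin list, 1 of 11 tested rose (Nrp2) and 1 fell (Nrp1).

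Pan-endothelial genes were present in both classes. Of 18 tested, Kdr, Flt1, Emcn and Cldn5 rose and none fell, with a median of 0.02. Emcn, a sialomucin of venous and capillary endothelium, rose by 0.72 (SE 0.21) and Cldn5, a tight-junction protein, by 0.79 (SE 0.16), with edgeR adjusted p of 0.0384 and 2.18e-04. The call of Emcn was lost under 15 of 26 alternatives, DESeq2 and 3 of the 4 left-out libraries among them. Pecam1 had 3900, 3435, 4759 and 4269 CPM in panel-high EC and 5013, 4607, 4779 and 4799 in the other EC, and Cdh5 615, 290, 359 and 473 beside 456, 307, 389 and 422. The gate used these genes together with Vwf, so their levels are a description.

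Other large rises had no common list. Zfp385a, a zinc-finger protein, was highest by estimate with 38.4, 67.5, 35.2 and 26.3 CPM beside 9.69, 3.07, 4.18 and 14.9 (log2 difference 2.62, SE 0.63, edgeR adjusted p = 0.00458), on 19 counts. Wipf3, a regulator of actin assembly, rose by 2.01 (SE 0.39), Tmem45a by 2.04 (SE 0.41), Abcb1a, a drug efflux pump of barrier endothelium, by 2.34 (SE 0.52) and Pde2a, a phosphodiesterase that breaks down cyclic nucleotides, by 2.03 (SE 0.44), with edgeR adjusted p from 1.52e-04 to 0.00155. Lbp, the lipopolysaccharide-binding protein, had 134, 209, 56.3 and 78.8 CPM beside 57.1, 15.9, 29.3 and 29.8 (log2 difference 1.98, SE 0.38, edgeR adjusted p = 1.02e-04). Meox1, a homeobox factor, had 57.6, 182, 28.2 and 118 CPM beside 28.002, 46.6, 16.7 and 6.39 (edgeR adjusted p = 4.93e-04), and its counts sat almost wholly in cells led by Igfbp5, as described further on. Nadsyn1 and Lhfpl2 rose on 17 counts each, with edgeR adjusted p of 0.0408 and 0.0467. Without Jag1 ECKO replicate 2 the calls of Zfp385a, Lbp, Meox1 and Nadsyn1 were lost, and that of Lhfpl2 without any 1 of the other 3 libraries.

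Arterial genes fell more often than they rose. Of 16 tested, 6 fell (Gja4, Hey2, Nrp1, Fbln5, Tm4sf1 and Eln) and 1 rose (Cxcl12), with a list median of -0.59. The rest of those tested were not called. The summed level of the whole list of 19 genes ran from 10353 to 13491 CPM in panel-high EC and from 15275 to 17076 in the other EC, without overlap. Gja4, the gap-junction protein connexin 37, had 57.6, 108, 197 and 289 CPM in panel-high EC and 323, 361, 364 and 347 in the other EC (log2 difference -1.16, SE 0.22, edgeR adjusted p = 7.27e-05). Hey2, a Notch target that maintains arterial identity, had 96.1, 67.5, 127 and 65.7 CPM beside 174, 151, 237 and 207 (log2 difference -1.16, SE 0.26, edgeR adjusted p = 0.00195). Neither gene overlapped between the classes, and Gja4 was lowest in the libraries labelled Jag1 ECKO. The call of Hey2 was lost with DESeq2, with the same share of EC from each library, in cells scored without Aqp1 and with no replicate block, and that of Gja4 only with no replicate block. Nrp1, a co-receptor for VEGF-A and class 3 semaphorins, had 865, 675, 831 and 893 CPM beside 1225, 1170, 1557 and 1411 (log2 difference -0.79, SE 0.14, edgeR adjusted p = 1.34e-05). Nrp1 thus fell where its relative Nrp2 rose.

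**Figure D4:**
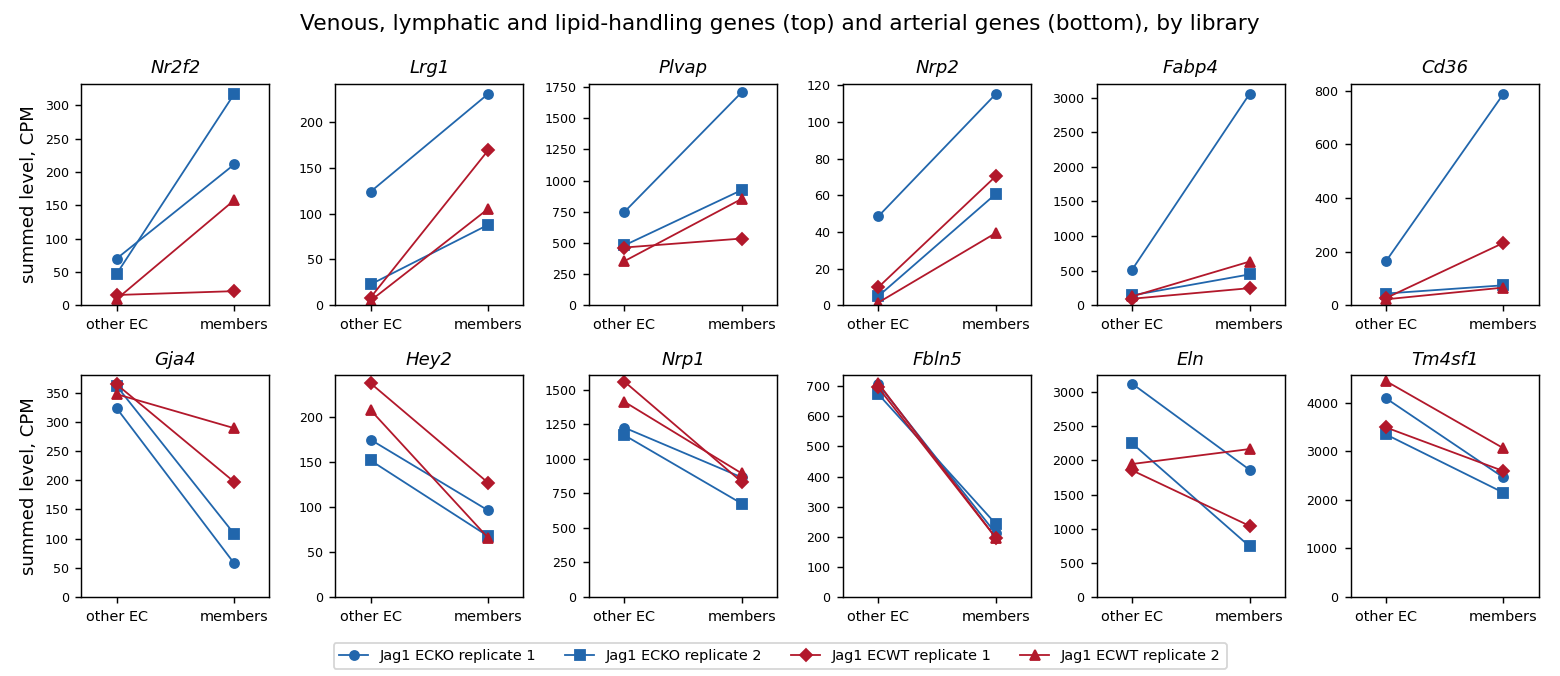
Summed levels in CPM of 12 genes in other EC and panel-high EC (members), 1 line per library and a linear axis from 0 in each panel. The top row rises from other EC to panel-high EC in every library, least for Nr2f2 and Plvap in Jag1 ECWT replicate 1. The bottom row falls in every library except for Eln in Jag1 ECWT replicate 2.

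Fbln5, an elastic-fibre protein, had 211, 243, 197 and 197 CPM in panel-high EC and 707, 674, 696 and 710 in the other EC (log2 difference -1.75, SE 0.18, edgeR adjusted p = 6.39e-13), and a count in 42 of 70 cells beside 564 of 750, or 35.4% beside 59.2% after thinning. Eln, elastin itself, had 1864, 742, 1042 and 2168 CPM beside 3125, 2252, 1856 and 1948 (log2 difference -0.81, SE 0.14, edgeR adjusted p = 1.23e-05), higher in panel-high EC in Jag1 ECWT replicate 2 and lower in the other 3 libraries. Tm4sf1, a membrane protein abundant in endothelium, had 2459, 2146, 2591 and 3061 CPM beside 4088, 3345, 3488 and 4442 (log2 difference -0.64, SE 0.12, edgeR adjusted p = 7.10e-05). Cxcl12, a chemokine, was the exception in the list, with 557, 67.5, 380 and 52.6 CPM beside 95.9, 104, 131 and 106 (log2 difference 0.91, SE 0.26, edgeR adjusted p = 0.0410). It was higher in replicate 1 of both labels and lower in replicate 2 of both, and 26 of its 97 counts were in 1 cell. Its call was lost under 20 of 26 alternatives, so its place as a rise in the lists here rests on the settings chosen.

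Of the Notch pathway list, 1 of 17 tested fell (Hey2, whose call DESeq2 did not give) and none rose, with a median of -0.13. Jag1, the ligand that the study deleted, had 134, 101, 35.2 and 26.3 CPM in panel-high EC and 166, 68.1, 32.1 and 25.6 in the other EC (log2 difference 0.13, SE 0.36, edgeR adjusted p = 0.981). Its level varied more between libraries than between the classes of a library.

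Matrix genes fell more often than they rose, with 7 of 20 tested lower (Col4a1, Fn1, Sparc, Fbln2, Fbln5, Eln and Thbs1), none higher and a median of -0.32. Fbln5 and Eln are also in the arterial list, so the falls of the 2 lists share them. Thbs1, thrombospondin 1, had 173, 128, 260 and 118 CPM beside 565, 511, 570 and 562 (log2 difference -1.73, SE 0.20, edgeR adjusted p = 3.59e-11). Sparc, a collagen-binding protein, had 1095, 1282, 1837 and 1143 CPM beside 1861, 2399, 2557 and 2279 (log2 difference -0.83, SE 0.13, edgeR adjusted p = 9.33e-07). Neither overlapped between the classes. Fn1, Fbln2 and Col4a1 fell by 0.85, 0.87 and 0.66 on the log2 scale (SE 0.16, 0.16 and 0.19), with edgeR adjusted p from 3.35e-05 to 0.0410. The call of Col4a1 was lost under 18 of 26 alternatives, each left-out library and DESeq2 among them. In cells scored without Aqp1 all 7 but Fbln5 lost their calls, and Fn1 had a log2 difference of 0.062.

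Of 14 genes tested that answer to blood flow, 2 were lower (Edn1 and Cyr61) and 2 higher (Klf4 and Timp3), with a median of -0.04. The falls kept their calls under all 26 alternatives, whereas Timp3 lost its call under 14 and Klf4 under 7, for both genes without either Jag1 ECWT replicate among them. Edn1, the vasoconstrictor peptide endothelin 1, had 115, 87.7, 113 and 92.0 CPM in panel-high EC and 374, 321, 204 and 446 in the other EC (log2 difference -1.68, SE 0.24, edgeR adjusted p = 8.64e-08). It was detected in 21.4% of panel-high EC beside 52.9% of the others, and after thinning in 9.23% beside 41.2%. Cyr61, a matricellular target of YAP, had 115, 155, 331 and 171 CPM beside 765, 327, 559 and 816 (log2 difference -1.52, SE 0.20, edgeR adjusted p = 7.02e-09). Klf4, a transcription factor induced by laminar flow, had 500, 324, 753 and 525 CPM beside 449, 194, 367 and 244 (log2 difference 0.74, SE 0.17, edgeR adjusted p = 0.00240). Of the BMP and TGF-beta list 2 of 17 fell, Bmp4 with 941, 1120, 1563 and 1156 CPM beside 1945, 2376, 2200 and 2449 (log2 difference -0.97, SE 0.13, edgeR adjusted p = 2.19e-08) and the inhibitory Smad6 by 1.15 (SE 0.27, edgeR adjusted p = 0.00413). Bmp4 kept its call under all 26 alternatives, whereas Smad6 lost its call with DESeq2, without Jag1 ECKO replicate 2, in cells led by Aqp1, with the score without Igfbp5 and with no replicate block.

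Some of the largest falls outside these lists were of genes with few counts in panel-high EC. Coch, a secreted extracellular matrix protein, had 1 count in panel-high EC and 403 in the other EC, a ratio of CPM of 0.0278 with an exact 95% counting interval of 0.000702 to 0.156 (edgeR adjusted p = 2.24e-08). The 403 counts lay in 91 cells, with 70 in 1 cell. The interval treats counts as independent and does not cover such clustering in cells. Sfrp2, a secreted modulator of Wnt signalling, had 57.6, 0, 7.04 and 13.1 CPM beside 278, 76.7, 184 and 238 (log2 difference -3.85, SE 0.44, edgeR adjusted p = 3.59e-11). Pla2g5, a secreted phospholipase, and Nkx2-3, a homeobox factor, fell with log2 differences of -2.57 (SE 0.52) and -2.49 (SE 0.52), each on 6 counts in panel-high EC, with edgeR adjusted p of 3.01e-04 and 6.28e-04. Twist1, a basic helix-loop-helix factor, fell by 1.91 (SE 0.31, edgeR adjusted p = 2.38e-06), with 21.4% of panel-high EC and 45.2% of the others holding a count, or 16.9% and 31.7% after thinning. Rnf144a, a ubiquitin ligase, fell by 2.06 (SE 0.42, edgeR adjusted p = 4.13e-04), a call lost without Jag1 ECWT replicate 1. Bcap29 and the integrin subunit Itgb5 had log2 differences of -1.67 and -1.64 with edgeR adjusted p of 0.0216 and 0.0496, and the call of Itgb5 held under 4 of 26 alternatives and that of Bcap29 under 18. Of 13 tested genes from panels for other sets of aortic EC, Sfrp2, Thbs1, Pla2g5 and Pcolce2 fell and Cxcl12 rose. Those genes were picked from these same libraries, so the counts are not independent evidence.

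Lists tied to the panel genes themselves mostly gave no call. None of 6 IGF-axis genes, 7 aquaporin and solute carrier genes or 5 GALNT genes tested was called, and none of the listed RET ligands and co-receptors was high enough to test. Of 7 hyaluronan genes, Itih5, a hyaluronan-binding protein, rose by 2.11 (SE 0.41, edgeR adjusted p = 1.75e-04), with 25 of its 50 counts in 1 cell and no call without Jag1 ECKO replicate 2. None of 17 immediate early and dissociation genes and none of 6 cell cycle genes was called. Over all 6196 genes tested 2.11% were called, so the absence of calls in lists this short is no result about them.

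Markers of mural cells moved with the contrast. Of 5 smooth muscle genes tested, Acta2, Myh11 and Tagln fell, with 346, 169, 35.2 and 145 CPM of Acta2 in panel-high EC beside 865, 882, 220 and 427 (log2 difference -2.001, SE 0.21, edgeR adjusted p = 6.39e-13). The summed smooth muscle list ran from 106 to 615 CPM in panel-high EC and from 470 to 1744 in the other EC. EC with 10 or more mural or fibroblast counts numbered 11 of 70 panel-high EC and 116 of 750 others. With such cells left out of both classes 157 genes were called, 110 of them among the 131. Those cells were chosen by counts of mural and fibroblast genes, so the values of these genes without them (log2 differences of -0.32 for Acta2, -1.43 for Tagln and 0.20 for Myh11) are a description only. In cells scored without Aqp1 the direction turned, with log2 differences of 1.06 for Acta2, 2.15 for Myh11 and 1.62 for Tagln, of which edgeR called Myh11 (adjusted p = 4.83e-04). The call of Myh11 was also lost without Jag1 ECKO replicate 2. Fibroblast genes went both ways, with Lum and Col1a1 higher and Col3a1 lower of 6 tested (Col3a1 was higher by 1.41 with the score without Aqp1, and Lum and Col1a1 lost their calls with DESeq2 and without Jag1 ECKO replicate 2), and a summed list of 653 to 2693 CPM beside 1217 to 2044. The summed leukocyte list reached at most 19.2 CPM in panel-high EC and 15.9 in the others.

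The 70 cells were not uniform, as a split by the gene that led the score showed. This split used the same values as the rule and is described without a test, and genes named in it were chosen after their values were seen. The 58 cells led by Aqp1 numbered 11, 14, 20 and 13 by library, and the 11 led by Igfbp5 numbered 2, 6, 2 and 1. Aqp1 had 2853 CPM in the former and 618 in the latter, and Igfbp5 210 and 7241. Lyve1 had 50.2 CPM in cells led by Aqp1 and 749 in those led by Igfbp5, Nr2f2 103 and 499, Flt4 38.4 and 263, and Meox1 5.91 and 539. Vwf went the other way, with 1846 CPM in cells led by Aqp1, 355 in those led by Igfbp5 and 1678 in the other EC. Lrg1 had 162 and 26.3 CPM, and Itih5 148 and 0. Fabp4 had 756 and 683 CPM, beside 204 in the other EC, but 1 cell held 38 of the 52 Fabp4 counts of the cells led by Igfbp5.

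**Figure D5:**
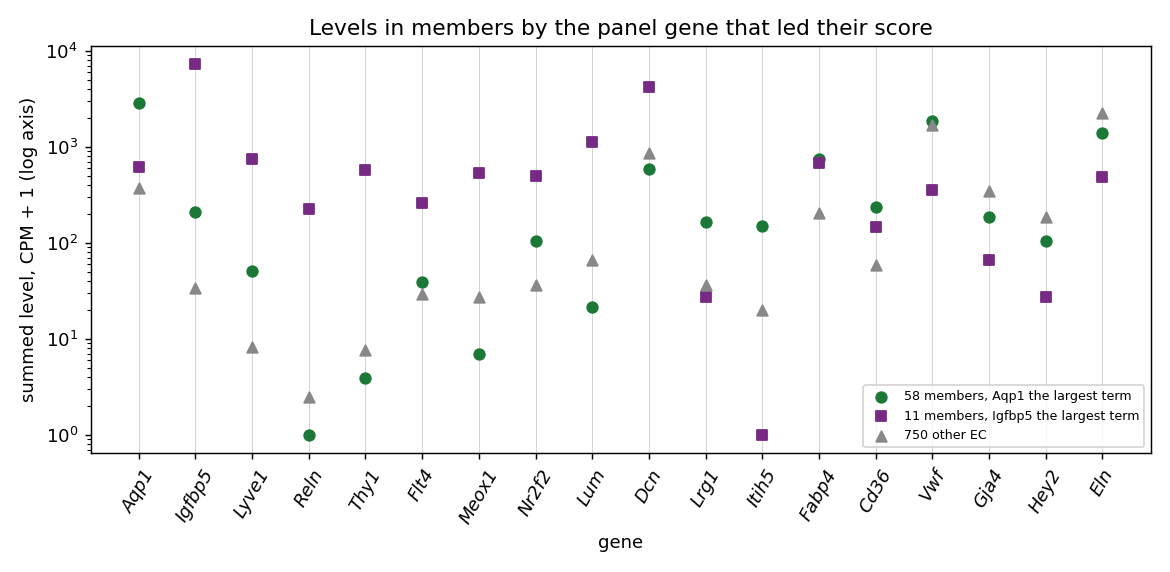
Levels, as CPM + 1 on a log axis, of 18 genes in panel-high EC led by Aqp1 (circles), those led by Igfbp5 (squares) and other EC (triangles), summed over libraries. Reln, Thy1, Meox1 and Lum are high in the cells led by Igfbp5, Lrg1 and Itih5 in those led by Aqp1, and Gja4, Hey2 and Eln are below other EC in both.

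The cells led by Igfbp5 were themselves mixed. The 3 with the highest score, 1 from Jag1 ECKO replicate 1 and 2 from Jag1 ECKO replicate 2, each held counts of Lyve1 (6, 19 and 31), Flt4 (6, 6 and 7), Nr2f2 (4, 9 and 15), Thy1 (7, 17 and 20) and Reln (6, 1 and 10), a secreted glycoprotein made by lymphatic endothelium. Aqp1 counts in those 3 cells were 0, 1 and 0, and Prox1 counts were 0 in each. Pdpn, also of the lymphatic list, had 0, 1 and 4 counts in them and 1 count in all the other EC. A further 4 of the 11, from Jag1 ECKO replicate 2, Jag1 ECWT replicate 1 and Jag1 ECWT replicate 2, held 10 or more counts of Lum or Dcn, small proteoglycans of fibroblasts. Dcn counts in those 4 were 94, 77, 91 and 53, and Meox1 counts 4, 13, 8 and 3, with 21, 23, 24 and 18 counts of Pecam1. The remaining 4 of the 11 were in neither group.

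Which of the 131 calls rested on those cells was measured by leaving the 12 panel-high EC not led by Aqp1 out of both classes, an alternative chosen after seeing the data. The 58 cells led by Aqp1 gave 106 calls, 42 higher and 64 lower, of which 89 were among the 131. Falls of arterial genes held, with log2 differences of -1.03 for Gja4 (edgeR adjusted p = 0.00231), -1.03 for Hey2 (0.0222) and -1.67 for Fbln5 (2.44e-10). Rises of Fabp4 (1.90, edgeR adjusted p = 4.87e-12), Cd36 (1.97, 9.54e-06), Lrg1 (2.62, 1.28e-06), Nrp2 (2.68, 0.00138) and Nr2f2 (1.83, 0.00350) held as well. Flt4 (0.25, edgeR adjusted p = 0.981) and Col1a1 (0.23, 0.983) were no longer called, Kdr (2.10) had an edgeR adjusted p of 0.0865, and Lum turned from a rise of 1.28 to a fall of 1.90 with an adjusted p of 0.0469.

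Panel-high EC were then compared between the libraries labelled Jag1 ECKO and Jag1 ECWT, 2 against 2, the contrast for which the mice were made. Of 2112 genes tested by edgeR's quasi-likelihood test, 2 were called (0.0947%), Thy1 and Fos, both higher under the label Jag1 ECKO, and 125 had an unadjusted p below 0.05. DESeq2 called 0 genes, with 25 at an unadjusted p below 0.05. Thy1, a surface glycoprotein, had 8, 37, 0 and 0 counts in panel-high EC, so the level was at least 16.3-fold higher under Jag1 ECKO when 3 counts over the Jag1 ECWT group were taken as the floor (edgeR adjusted p = 0.0324). Its counts lay in 4 cells, and 44 of the 45 in the 3 Lyve1- and Reln-positive cells above. Fos, an immediate early transcription factor, had 231, 290, 28.2 and 0 CPM (log2 difference 3.92, SE 0.66, edgeR adjusted p = 0.0324), and 1 cell held 40 of its 59 counts. Jag1 had a log2 difference of 1.90 (SE 0.75, edgeR adjusted p = 0.761), with the higher values under the label of deletion.

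Whether the contrast of panel-high with other EC differed between the labels was tested as an interaction. Of 6196 genes 0 (0%) were called by edgeR's quasi-likelihood test, 314 had an unadjusted p below 0.05, and DESeq2 called 0, with 88 below 0.05. Called genes of the main contrast such as Fabp4, Nr2f2, Gja4 and Fbln5 thus had no detected difference between labels at this depth, and a test that misses the threshold does not show that the labels were alike.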

How the data were processed

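Per the labels and the methods, the authors aligned SORT-seq reads to GRCm38 with STAR and used Seurat 3.1, per the submitters' processing notes. The deposited table holds estimated counts of molecules, slightly above whole numbers at higher values as a correction for identifier collisions gives (the counting tool is not given in the sources used here), for 18767 genes in 991 cells, and 824 cells had more than 1200 genes. Estimated counts were rounded to whole numbers and summed per library and class. The members and gene lists were chosen with earlier results of these data known. No doublet caller was run, and mural and fibroblast counts were examined instead.

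Sums were tested with edgeR 4.0.16 (R 4.3.3; TMM, filterByExpr, quasi-likelihood fit, Benjamini-Hochberg adjustment over all genes tested), with library as a block between classes. The block comes from cells of both classes sharing a library. DESeq2 1.42.0 was an alternative, as were other normalization, filters, score genes, thresholds, left-out libraries and thinning to 2500 counts. Shares were compared by exact permutation of the libraries, and their exact intervals came from scipy 1.17.1. The scripts were tested on simulated data. Named genes were the 15 largest rises and 15 largest falls that were called, had the same sign in each library and a mean of at least 20 CPM in the higher class, along with called members of the lists; 1 of these genes is not reported here. Of 376 list genes, 355 were in the table, 5 through an older symbol. Thresholds were an adjusted p of 0.05 throughout. Panel-high EC summed to between 52050 and 148164 counts per library, which limits precision for genes at low CPM. Columns mapped to no sample numbered 0.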

Additional observations from a re-analysis of the deposited data

Results flagged for a closer look

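Outside the EC gate, 5 of 171 deposited cells had a panel score at or above that of the lowest panel-high EC, a signal in cells that the comparisons of the report did not use. All 5 had 1200 genes or fewer, and 2 came from Jag1 ECKO replicate 1 and 3 from Jag1 ECKO replicate 2. The alternative that admitted EC with more than 1000 genes took in 3 of them.

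Fos was higher by CPM in panel-high EC than in other EC in both libraries labelled Jag1 ECKO and lower in both labelled Jag1 ECWT, with an interaction of 2.98 on the log2 scale (SE 0.76, edgeR adjusted p = 0.110). Of its 59 counts in panel-high EC, 1 cell held 40. A Fos count was in 11.4% of panel-high EC and 13.3% of the others, so these directions rest on few cells. Thy1 had the same directions in CPM, but 0 counts in panel-high EC against 1 and 2 in other EC of the Jag1 ECWT libraries give no direction there. Its difference between labels within panel-high EC was 7.54 on the log2 scale, a fitted value that depends on the prior count. The gene fell below the filter for the difference of the contrasts, which with no filter had an edgeR adjusted p of 1. Levels were 154, 250, 0 and 0 CPM in panel-high EC and 5.38, 14.1, 1.39 and 1.42 in other EC.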

How the results depend on the processing

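For panel-high against other EC (131 called, 64 higher, 67 lower), DESeq2 called 85 (40 higher), cells scored without Aqp1 59 (36 higher, 23 lower), and the fit with no replicate block, which ignores that both classes share a library, 41 (14 higher, 27 lower). Rises numbered 42 among the 50 highest-scoring EC, 37 with the same share of EC from each library and 42 in cells led by Aqp1. Leaving out each library in turn gave 83 to 134 calls, with 29 to 65 higher, fewest without Jag1 ECKO replicate 2. Other alternatives stayed within 1.5 times. Bmp4, Cyr61, Edn1, Fbln5 and Nrp1 kept their call under all 26 alternatives, and 50 of the 56 named called genes, 27 of the 30 largest rises and falls among them, lost it under at least 1.

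Signs reversed with the score without Aqp1 for Acta2 (1.06), Col3a1 (1.41), Emcn (-0.13), Fn1 (0.062), Itgb5 (0.40), Lrg1 (-0.028), Myh11 (2.15) and Tagln (1.62), and without Igfbp5 for Col1a1 (-1.25). With mural or fibroblast EC left out, Myh11 was 0.20, or 0.21 when left out of the other EC alone, and Fos -0.11. Lum was -1.90 in cells led by Aqp1. Jag1, never called, ran from -0.22 to 0.35 without each library (negative without Jag1 ECKO replicate 2) and took values of -0.034 (no filter), -0.050 (100 highest EC), -0.0073 (same share), -0.012 (without mural EC), -0.20 (thinned score), -0.084 (led by Aqp1), -0.14 (score without Igfbp5) and -0.074 (no replicate block).

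Between labels within panel-high EC (2 called), calls were 10 with no filter, 1 with 6 or more gate counts and 1 in cells led by Aqp1. They were 0 with DESeq2, the 50 or 100 highest EC, the same share per library, over 1500 genes, the thinned score, no mural EC, or at least 2 panel genes. Leaving out libraries gave 0 to 31, and 0 to 5 for the interaction (0 called). No paired analysis was possible because nothing in the sources ties a library of one genotype to one of the other. The share difference of -3.41 points became 0.366 after thinning and ran from -8.21 to 1.38 without each library. Without each library, left-out Aqp1 ran from 0.56 to 1.02 and left-out Igfbp5 from 1.86 to 3.73, as log2 differences given as a description. With no filter left-out Aqp1 was 0.54, and by DESeq2 left-out Igfbp5 was 2.65. The causes were not tested.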
